A study of Eurytemora affinis with 18 samples.

Results

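Chaoptin, Otx proteins and the irregular chiasm C-roughest protein (irreC-rst) are known for their work in the eye and the visual system, and 4 genes of the copepod Eurytemora affinis named after them were followed across both sexes and all doses. They are LOC111695981 (chaoptin-like), LOC111698143 (homeobox protein otx5-A-like), and LOC111708628 and LOC111699563, which share the name irregular chiasm C-roughest protein-like. They are 4 of the 23728 genes in the table of counts. The genes were selected by the study on the contrast between males exposed to 50 µg/L and control males, so values of that contrast are given here as a description with no test. The names come from the study's own tables and rest on sequence likeness to other animals. Genome positions and sequences of these genes were not used here.

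Tebufenozide (TEB) is an insecticide that mimics the moulting hormone at the ecdysone receptor of insects, and the study asked how a crustacean that is not its target responds to it. Whole adults from the Seine estuary, acclimatized in the laboratory, were exposed for 72 h to a nominal 0.5 or 50 µg/L of TEB, or to a solvent control without it. All exposures contained the solvent acetone, and females were without eggs. Each of the 6 groups of sex and dose comprised 3 libraries, each from a pool of 30 copepods, which gave 18 libraries in all. P-values measure the spread between these pools, and the sources used here do not tie a pool to a vessel of its own.

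In Drosophila, chaoptin is an adhesion protein on the surface of photoreceptor cells, where it holds together the membrane folds that carry the visual pigment. Otx homeobox proteins are transcription factors that pattern the head and regulate genes of photoreceptors in flies and vertebrates, and the otx5 form was named in frogs. IrreC-rst is an adhesion molecule of the immunoglobulin family that guides axons across the optic chiasm and sorts cells in the developing fly eye, and it also acts outside the eye. Their roles in copepods, which carry a small median eye, were not measured here. RNA of whole animals does not show where a gene is expressed, and fewer cells of a type and less RNA per cell cannot be told apart in such samples.

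Libraries held from 3882407 to 17114866 counts on genes. Control females had between 13325753 and 17114866, and males at 50 µg/L had the fewest, between 3882407 and 8181508. Levels are given as counts relative to library size (CPM) scaled by TMM, a factor that corrects for differences in RNA composition, with the standard deviation (SD) over the n = 3 libraries of a group. They are not corrected for gene length and are compared between samples, never between genes. All 6 libraries at 50 µg/L, and female 0.5 µg/L replicate 3, were sequenced on the Mid Output flow cell and the others on the High Output one, so flow cell and the 50 µg/L dose cannot be told apart within males, and among females a single library separates them.

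Male libraries differed in genes that are otherwise high in females. Over 51 genes chosen for being higher in females than in males at 0.5 µg/L, the median level in male control replicates 1, 2 and 3 was 0, 36.5 and 33.0% of the mean of control females. In males at 0.5 µg/L it was 0.179, 7.29 and 7.21%, where the choice of the list itself favours low values, and it was 0 in each of the 3 male libraries at 50 µg/L. Male control replicates 2 and 3 therefore stood apart from every other male library, and 0.5 µg/L replicates 2 and 3 stood between. The part of this difference in the male results below was not tested, and the fold changes that use those libraries are given with and without them.

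Chaoptin-like transcripts were steady in females and varied widely in males. Control females had 128, 130 and 128 CPM (mean 128 ± 0.964 SD, n = 3). Females at 0.5 µg/L had 128, 123 and 126 CPM (126 ± 2.45), and females at 50 µg/L had 114, 139 and 123 CPM (125 ± 12.4). The 3 female groups overlapped, and the highest of the 9 female libraries was 1.22 times the lowest. Control males had 2.98, 55.0 and 65.7 CPM (41.2 ± 33.5). Males at 0.5 µg/L had 1.45, 33.1 and 31.5 CPM (22.0 ± 17.8), and males at 50 µg/L had 8.38, 2.66 and 4.87 CPM (5.30 ± 2.88). Every male library was below every female library, and among males the highest was 45.2 times the lowest. How many of all genes separate the sexes in this way was not counted, here or for the genes below. Replicate 1 was low in both the control and the 0.5 µg/L group, so neither group was separate from the 50 µg/L group. The lowest male values rest on few reads, with 9 counts in 0.5 µg/L replicate 1 and in 50 µg/L replicate 2.

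The otx5-A-like gene was likewise steady in females and lower in males, where its range was smaller than that of chaoptin-like. Control females had 37.6, 49.5 and 36.4 CPM (41.2 ± 7.24), females at 0.5 µg/L 47.6, 39.0 and 44.4 CPM (43.7 ± 4.35), and females at 50 µg/L 36.1, 43.4 and 38.7 CPM (39.4 ± 3.70). Control males had 7.91, 17.2 and 23.4 CPM (16.2 ± 7.79). These male values lay under those of all 9 female libraries. Males at 0.5 µg/L had 4.68, 15.8 and 16.9 CPM (12.5 ± 6.78), and males at 50 µg/L had 8.15, 6.20 and 4.19 CPM (6.18 ± 1.98). As for chaoptin-like, replicate 1 of control and 0.5 µg/L males was low, and replicates 2 and 3 lay above all 50 µg/L males. For otx5-A-like, replicate 1 of both groups lay within the range of the 50 µg/L males. For chaoptin-like, that of the 0.5 µg/L males lay below it, at 1.45 CPM.

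LOC111708628, the first irreC-rst-like gene, stood out at 50 µg/L in males. Control males had 5.82, 10.4 and 9.49 CPM (8.57 ± 2.43), and males at 0.5 µg/L had 9.21, 9.95 and 7.61 CPM (8.92 ± 1.20). Males at 50 µg/L had 35.4, 35.4 and 31.7 CPM (34.2 ± 2.17). All 3 of the latter lay above every other library of either sex, while control and 0.5 µg/L males overlapped. Control females had 6.24, 4.02 and 4.92 CPM (5.06 ± 1.11). Females at 0.5 µg/L had 7.28, 8.17 and 5.77 CPM (7.07 ± 1.21), and females at 50 µg/L had 4.76, 5.54 and 5.44 CPM (5.25 ± 0.429). Exposed and control females overlapped at both doses.

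LOC111699563, the second irreC-rst-like gene, was low in females and highest in males at 50 µg/L. Control females had 2.04, 1.08 and 3.90 CPM (2.34 ± 1.43), females at 0.5 µg/L 2.65, 2.95 and 2.43 CPM (2.68 ± 0.261), and females at 50 µg/L 1.40, 0.751 and 2.20 CPM (1.45 ± 0.726). The female libraries held between 8 and 61 counts of this gene, which limits how small a change could be seen in them. Control males had 11.0, 5.79 and 10.03 CPM (8.95 ± 2.79), and males at 0.5 µg/L had 14.1, 9.56 and 9.33 CPM (11.0 ± 2.66). Males at 50 µg/L had 25.8, 26.3 and 20.0 CPM (24.0 ± 3.49). No male library overlapped the female range, and the 50 µg/L males lay above all other males. Separation of the sexes over all genes was not counted, but differences between them were common, as given below.

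**Figure D1:**
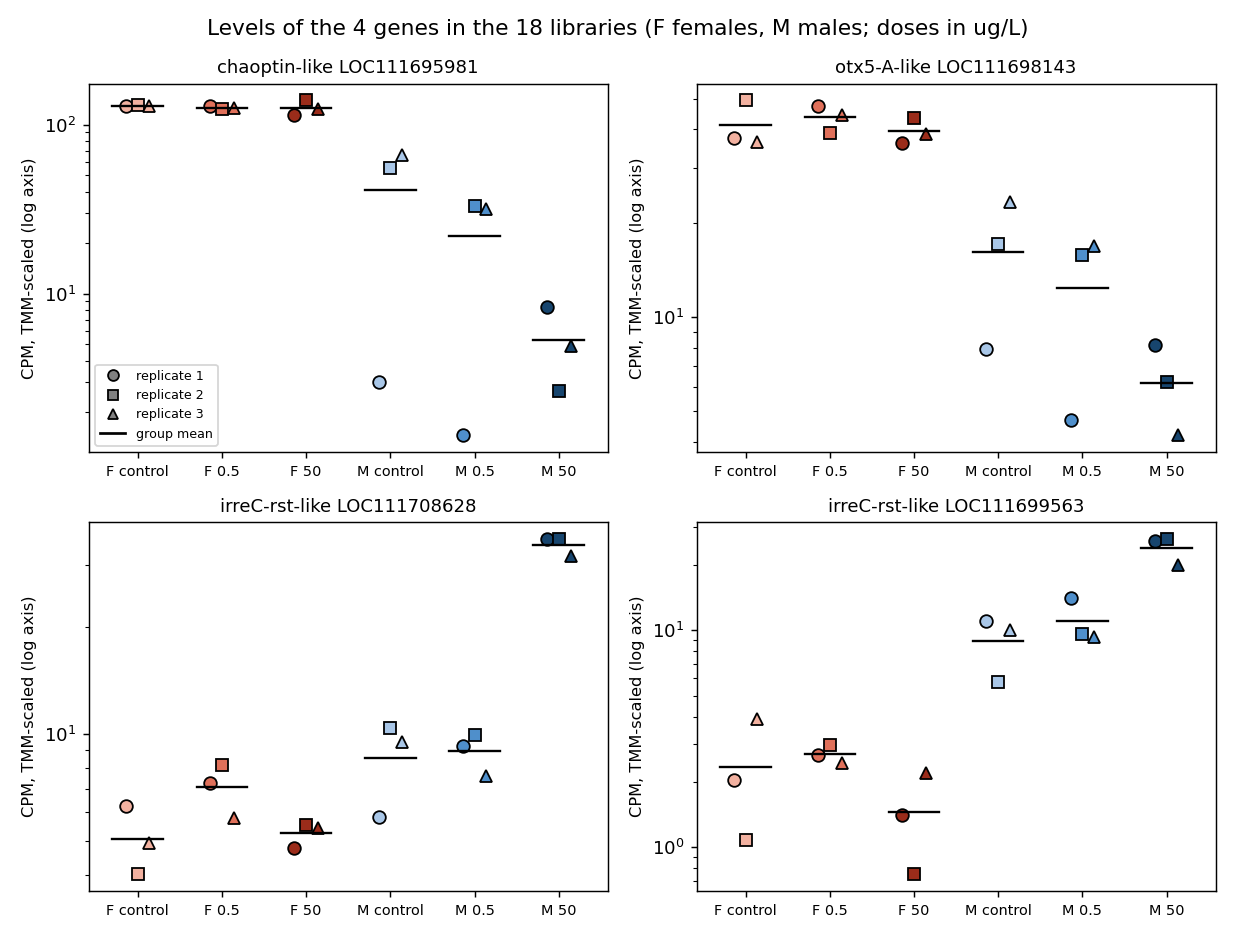
Level of each of the 4 genes in the 18 libraries, in TMM-scaled CPM on a log axis, by sex and nominal dose; symbols are single libraries and lines are means of 3 libraries. Chaoptin-like and otx5-A-like libraries of control and 0.5 µg/L males are split between a low replicate 1 and higher replicates 2 and 3, while the irreC-rst-like genes at 50 µg/L in males lie above all other libraries (31.7 to 35.4 CPM for LOC111708628 and 20.0 to 26.3 CPM for LOC111699563).

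Whether TEB changed these genes in females was tested, since the selection used no female library. None of the 4 genes was called in any comparison among females by edgeR's quasi-likelihood test, where a call needs a p of 0.05 or less after Benjamini-Hochberg adjustment and a change of 2-fold or more. Few genes at all were called in females. Of 15555 genes tested, 0% were called at 0.5 µg/L against controls, 0.00643% (1 gene) at 50 µg/L against controls, and 0% between both doses. At an unadjusted p under 0.05 there were 468, 1943 and 737 genes in these comparisons. DESeq2 called 5, 143 and 11 genes.

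At 50 µg/L against control females, chaoptin-like differed by 0.01 in log2 fold change (standard error (SE) 0.09, 95% interval -0.18 to 0.21). The otx5-A-like gene differed by -0.02 (SE 0.14, -0.33 to 0.29). Both intervals leave out a change of 2-fold in either direction. LOC111708628 differed by 0.10 (SE 0.27, -0.48 to 0.67) and LOC111699563 by -0.66 (SE 0.51, -1.77 to 0.45). For the second of these the interval still holds a fall of more than 2-fold. The edgeR adjusted p values were 0.98, 0.97, 0.91 and 0.62. With the flow cell as a covariate, which rests on 1 library, LOC111708628 stood at 0.47 and LOC111699563 at -0.50.

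At 0.5 µg/L against control females, the log2 fold changes were -0.01 (SE 0.09, 95% interval -0.20 to 0.19) for chaoptin-like and 0.11 (SE 0.14, -0.20 to 0.42) for otx5-A-like. LOC111708628 had the largest difference of the 4 genes, 0.51 (SE 0.26, -0.06 to 1.07), and LOC111699563 had 0.22 (SE 0.48, -0.82 to 1.26). The edgeR adjusted p was 1.0 for each gene, and the unadjusted p of LOC111708628 was 0.074.

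Between the doses, both irreC-rst-like genes were lower in all 3 females at 50 µg/L than in all 3 at 0.5 µg/L, by -0.41 (SE 0.27, 95% interval -0.99 to 0.16) for LOC111708628 and -0.88 (SE 0.51, -1.98 to 0.23) for LOC111699563 in log2 fold change. Such a separation in this direction was seen for 5.97% of the 15555 genes tested in females. The adjusted p of edgeR was 0.99 for both, and neither passed the test. Female 0.5 µg/L replicate 3, the library sequenced on the flow cell of the 50 µg/L libraries, had the lowest level of its group for each of them, 5.77 and 2.43 CPM. Chaoptin-like and otx5-A-like differed by 0.02 (-0.18 to 0.21) and -0.13 (-0.44 to 0.19) between the doses, and their groups overlapped.

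Females and males were compared at 0.5 µg/L, where no library had entered the selection. The contrast that selected the genes was still related to sex. In it, all 43 female-high genes of the male fit were lower at 50 µg/L. Of 2933 genes higher in males than in females at 0.5 µg/L, 2349 were higher. Genes so selected may differ between the sexes more often than others, so the shares over all genes given below are not a matched reference. Chaoptin-like was 5.66-fold higher in females (log2 fold change 2.50, SE 0.90, 95% interval 0.55 to 4.45; edgeR adjusted p = 0.023). The otx5-A-like gene was 3.47-fold higher (1.80, SE 0.39, 0.97 to 2.62; edgeR adjusted p = 5.9e-04). In both, all 3 female libraries lay above all 3 male libraries. The share of all genes separated in this way between the sexes was not counted. LOC111699563 was 4.07-fold lower in females (-2.02, SE 0.42, -2.91 to -1.14; edgeR adjusted p = 4.0e-04), again with no overlap. LOC111708628 was not called (-0.33, SE 0.27, -0.90 to 0.24; edgeR adjusted p = 0.27), and its libraries overlapped.

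Differences between the sexes were common over the genome. Of 18110 genes tested, 20.7% were called higher in females and 40.8% lower, against 2 and 1 of the 4 genes. By size, 282 genes had a larger rise than chaoptin-like and 1012 a larger rise than otx5-A-like, while 6057 had a larger fall than LOC111699563. The median over all genes was -0.54 with TMM scaling, -0.47 with the size factors of DESeq2 and -0.30 with library size alone. Relative to the TMM median the 4 genes stood at 3.04, 2.34, 0.21 and -1.48 in the order chaoptin-like, otx5-A-like, LOC111708628 and LOC111699563, so the sign for LOC111708628 depends on the reference chosen. By library size alone, 41.9% of the genes called were higher in females, against 33.6% with TMM, and the same 3 of the 4 genes were called.

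The size of the chaoptin-like and otx5-A-like differences depended on which male libraries were used. Without male 0.5 µg/L replicates 2 and 3, which held the female-high genes, the log2 fold changes were 6.46 for chaoptin-like and 3.25 for otx5-A-like. The corresponding values were -0.34 for LOC111708628 and -2.35 for LOC111699563. With 1 male library left at that dose, its spread cannot be measured, so the sizes alone are given. This omission was chosen after seeing the data. The libraries left out had the higher male levels of chaoptin-like and otx5-A-like, so their differences could only widen.

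**Figure D2:**
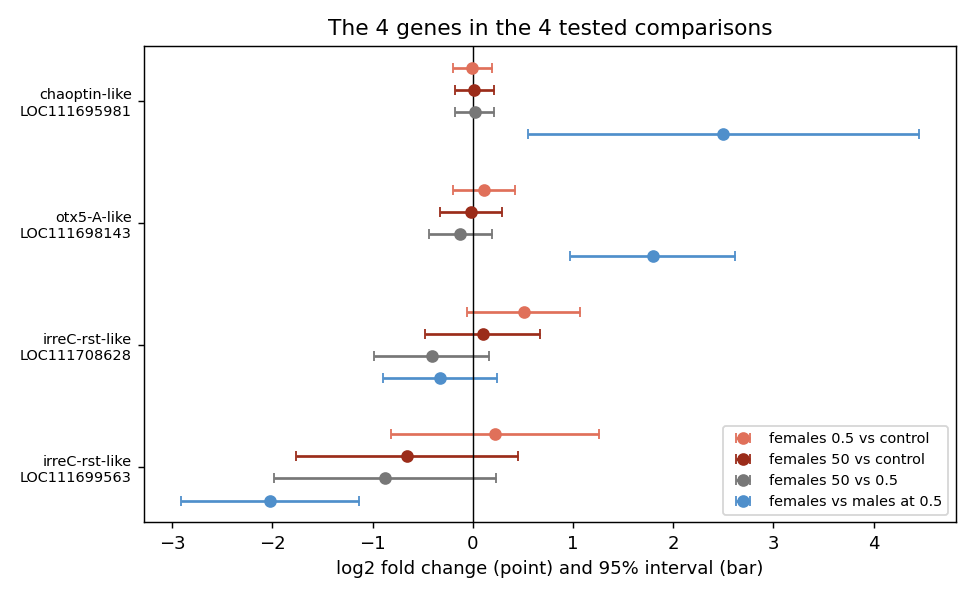
Log2 fold change (points) and 95% interval (bars) from edgeR for the 4 genes in the 3 comparisons among females and in females against males at 0.5 µg/L; values above 0 are higher in the group named first. The intervals within females all include 0, and those between the sexes exclude it for 3 genes, from 0.55 to 4.45 for chaoptin-like, 0.97 to 2.62 for otx5-A-like and -2.91 to -1.14 for LOC111699563.

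The differences between males at 50 µg/L and control males, which selected the genes, were -2.94 (SE 1.34) for chaoptin-like and -1.40 (SE 0.52) for otx5-A-like in log2 fold change. LOC111708628 stood at 1.99 (SE 0.32) and LOC111699563 at 1.42 (SE 0.35). Values of the irreC-rst-like genes did not overlap between these groups, which was so, in this direction, for 15.1% of the 17492 genes tested in males. Those of chaoptin-like and otx5-A-like did overlap, through control replicate 1.

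Set against each control library in turn, only chaoptin-like changed direction. The mean chaoptin-like level at 50 µg/L was 1.78 times that of control replicate 1, whereas controls 2 and 3 were 10.4 and 12.4 times that mean. For otx5-A-like the 3 controls were 1.28, 2.78 and 3.79 times the 50 µg/L mean. LOC111708628 at 50 µg/L was 5.87, 3.28 and 3.60 times the 3 controls, and LOC111699563 was 2.18, 4.15 and 2.40 times. Both irreC-rst-like genes were thus higher than in each control, and chaoptin-like was lower than only those controls that held the female-high genes. The otx5-A-like mean was lower than each control, although 1 of the 3 libraries at 50 µg/L lay above control replicate 1. With the controls that held the female-high genes left out together, a single control library remained. The log2 fold changes were then 0.79 for chaoptin-like, -0.42 for otx5-A-like, 2.50 for LOC111708628 and 1.07 for LOC111699563.

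In males, chaoptin-like and otx5-A-like were raised in the same libraries as the female-high genes. Chaoptin-like levels in control males were 2.32, 42.8 and 51.1% of the mean of control females, beside 0, 36.5 and 33.0% for the median of the female-high genes. At 0.5 µg/L they were 1.13, 25.8 and 24.5%, beside 0.179, 7.29 and 7.21% for that median. At 50 µg/L they were 6.52, 2.07 and 3.79%, beside a median of 0 in each library. The otx5-A-like percentages were 19.2, 41.7 and 56.8 in controls, 11.4, 38.5 and 41.1 at 0.5 µg/L, and 19.8, 15.1 and 10.2 at 50 µg/L. Every male library with a raised female-high median was also raised for both genes. In control replicates 2 and 3, which did not choose the list, chaoptin-like lay above 35 and 40 of its 51 genes. The otx5-A-like gene lay above 33 and 44 of them. In 0.5 µg/L replicates 2 and 3, both genes lay above 50 or 51. The list needed a log2 fold change of at least 3 at that dose, against 2.50 and 1.80 for these genes. Their position there was thus largely set by the cut-off. In libraries where the median of the female-high genes was at or close to 0, both genes were still detected. There, otx5-A-like kept more of its female level than chaoptin-like.

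A list of 2933 genes higher in males than in females at 0.5 µg/L had a median log2 fold change of 0.45 between males at 50 µg/L and control males, beside 0.02 over all 17492 genes. Of these male-high genes, 6 had a larger difference than LOC111708628 and 96 a larger one than LOC111699563. Over all 17492 genes the corresponding numbers were 218 and 804. These ranks use the contrast that selected the genes, so high ranks were favoured by the selection itself. LOC111708628 was also not called between the sexes at 0.5 µg/L, so the male-high genes are not its peers. Both this list and the female-high one were chosen on the 0.5 µg/L libraries of these data, and the male-high one after the data had been seen.

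**Figure D3:**
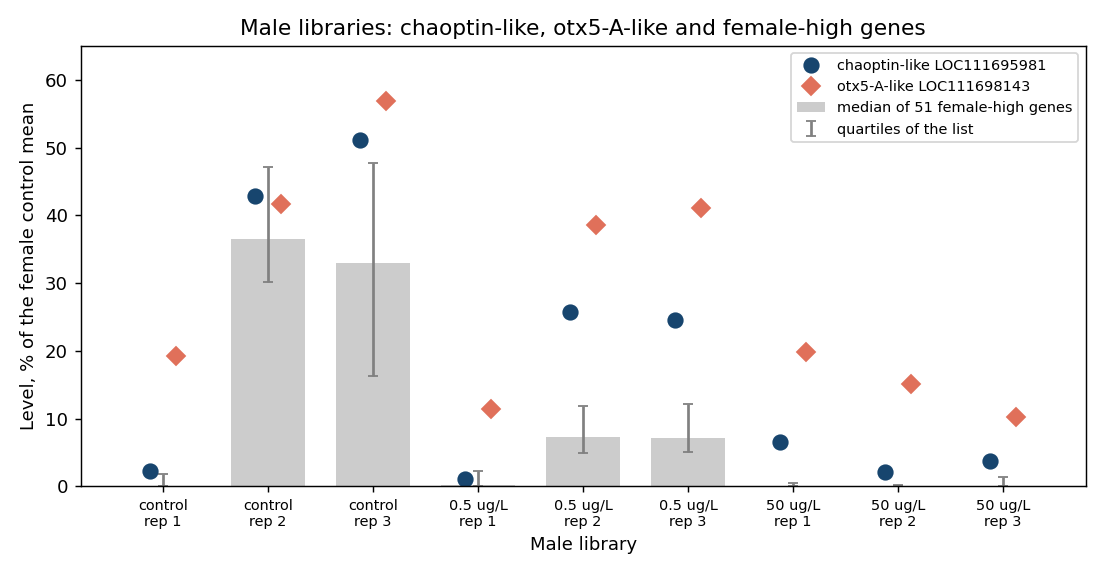
Level of chaoptin-like and otx5-A-like in each male library, as a percentage of the mean of control females, beside the median (bars, with quartiles) of the 51 female-high genes. Control replicates 2 and 3 have medians of 36.5 and 33.0%, and the 3 libraries at 50 µg/L have medians of 0.

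At 0.5 µg/L, males stood close to control males for the irreC-rst-like genes, with log2 fold changes of 0.05 (SE 0.31) for LOC111708628 and 0.29 (SE 0.35) for LOC111699563. Chaoptin-like stood at -0.92 (SE 1.21) and otx5-A-like at -0.39 (SE 0.50), with overlapping groups. With replicates 2 and 3 of both groups left out, 1 library a group remained, and the values were -1.01 for chaoptin-like, -0.74 for otx5-A-like, 0.68 for LOC111708628 and 0.36 for LOC111699563.

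Males at 50 µg/L against males at 0.5 µg/L gave log2 fold changes of -2.02 (SE 1.31) for chaoptin-like and -1.01 (SE 0.52) for otx5-A-like, with overlap. LOC111708628 stood at 1.94 (SE 0.32) and LOC111699563 at 1.14 (SE 0.35), without overlap, which was so in this direction for 14.3% of the 17492 genes. Without 0.5 µg/L replicates 2 and 3, a single library of that group remained. The values were then 1.79 for chaoptin-like, 0.32 for otx5-A-like, 1.82 for LOC111708628 and 0.70 for LOC111699563. The sign for chaoptin-like and otx5-A-like thus depended on replicates 2 and 3, and that for the irreC-rst-like genes did not. The contrasts of 0.5 µg/L males with control and 50 µg/L males share libraries with the one that selected the genes and were not tested.

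Between control females and control males, the log2 fold changes were 1.63 for chaoptin-like, 1.34 for otx5-A-like, -0.76 for LOC111708628 and -1.92 for LOC111699563. At 50 µg/L they were 4.55 (SE 1.04), 2.69 (SE 0.43), -2.70 (SE 0.29) and -4.05 (SE 0.47). These values share the male libraries that selected the genes. Leaving out the control males that held female-high genes was chosen after seeing the data, and a single control male library remained. The values among controls were then 5.45 for chaoptin-like, 2.41 for otx5-A-like, -0.16 for LOC111708628 and -2.20 for LOC111699563. By size alone, the gap at 50 µg/L was then larger than among controls for otx5-A-like and the irreC-rst-like genes, and smaller for chaoptin-like. With a single control male library the spread of these gaps cannot be measured, so their order is not established.

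The irreC-rst-like genes did not keep one ratio to each other. Counts of LOC111708628 were 0.527, 1.80 and 0.946 times those of LOC111699563 in control males, and 0.655, 1.04 and 0.816 times in males at 0.5 µg/L. In males at 50 µg/L the ratios were 1.37, 1.35 and 1.58. In females the ratio was above 1 in each library, from 1.26 to 7.38. The highest, in female 50 µg/L replicate 2, rests on 59 against 8 counts. The sampling error of the ratios was not computed, and it is large where counts are few. Since both genes carry 1 name and their sequences were not compared here, reads that they could share cannot be told apart in the counts, though unequal ratios show that their counts did not move as a single quantity.

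**Figure D4:**
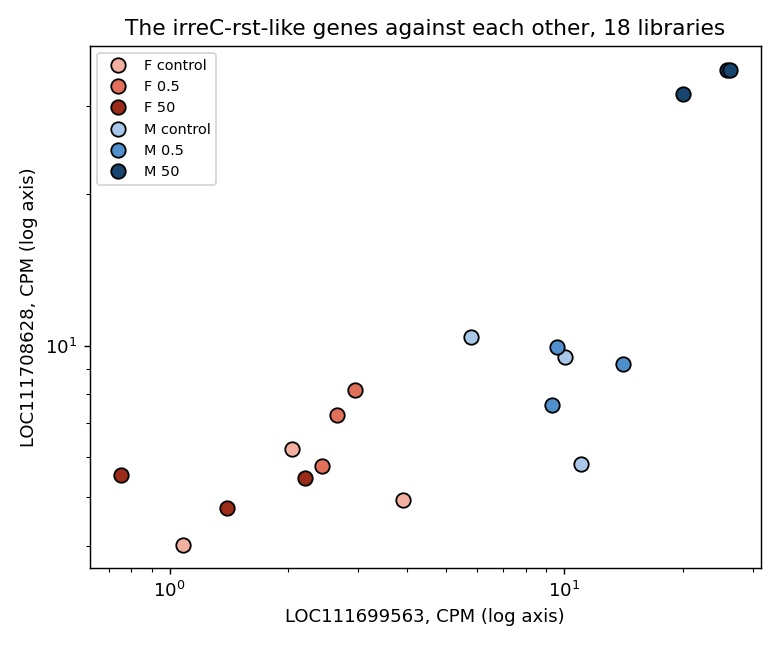
Level of LOC111708628 against LOC111699563 in the 18 libraries, both in TMM-scaled CPM on log axes, coloured by sex and dose. The 3 male libraries at 50 µg/L lie apart at 31.7 to 35.4 CPM and 20.0 to 26.3 CPM, and females lie to the left of all males.

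Across the 18 libraries the genes formed pairs. Pearson's r of log2 CPM was 0.967 between chaoptin-like and otx5-A-like and 0.816 between the irreC-rst-like genes, and it was negative between members of different pairs, from -0.898 to -0.657. Within the 9 male libraries the pairs had 0.931 and 0.824, and within the 9 female libraries 0.510 and 0.461. Between members of different pairs, r ran from -0.716 to -0.305 in males and from -0.353 to 0.0203 in females. These values describe libraries that share sex and dose, so they carry the differences between groups, and those over males include the libraries with female-high genes.

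Among 16769 genes with a mean of at least 1 CPM, those most alike to chaoptin-like over the 18 libraries were LOC111711648 (DNA polymerase beta-like, r = 0.993), LOC111714412 (0.993) and LOC111711641 (protein hunchback-like, 0.992). DNA polymerase beta repairs DNA, and hunchback is a transcription factor that patterns the fly embryo. For otx5-A-like they were LOC111697995 (0.993), LOC111703747 (0.993) and LOC111695141 (0.991). The closest genes to LOC111708628 had lower values, LOC111699007 (0.922), LOC111695317 (0.912) and LOC111699997 (0.910). For LOC111699563 they were LOC111700237 (0.974), LOC111709550 (0.974) and LOC111714914 (0.971).

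Over the 9 male libraries alone, other genes came first. Chaoptin-like was closest to LOC111704298 (0.993), LOC111714125 (proton-coupled amino acid transporter 1-like, 0.991) and LOC111712475 (0.990), and otx5-A-like to LOC111697580 (0.992), LOC111704864 (0.990) and LOC111703747 (0.981). LOC111703747 is the single gene among those closest to otx5-A-like over both sets of libraries. LOC111708628 was closest to LOC111700753 (0.983), LOC111700327 (putative ferric-chelate reductase 1 homolog, 0.972) and LOC111715238 (0.965). LOC111699563 was closest to LOC111707826 (0.991), LOC111696664 (0.984) and LOC111696052 (0.975). Genes given without a name had none in the tables used or are uncharacterized.

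A list of names of eye and visual genes, covering photoreceptor pigments, phototransduction, eye pigments and eye development, matched 6 of 1434 named genes, 4 of which are the genes above. Names were at hand only for genes that the study had listed as changed, so the other 2 are not independent of its results. LOC111700675 (protein white-like), which in flies transports precursors of eye pigments, had 3.88, 5.10 and 2.59 CPM in control males and 9.37, 4.45 and 4.66 CPM at 0.5 µg/L. Males at 50 µg/L had 14.4, 9.16 and 13.3 CPM, above all controls but overlapping the 0.5 µg/L group. The 9 female libraries had between 0.377 and 1.47 CPM. The gene was 6.99-fold lower in females than in males at 0.5 µg/L (log2 fold change -2.81, SE 0.56; edgeR adjusted p = 2.6e-04).

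LOC111707945 (transient receptor potential-gamma protein-like), named after a channel of the family that carries the light response in flies, had 3.13, 2.36 and 2.70 CPM in control males. At 0.5 µg/L males had 6.94, 2.36 and 4.17 CPM, and at 50 µg/L 9.31, 4.43 and 11.6 CPM. The 50 µg/L libraries lay above all controls and overlapped those at 0.5 µg/L. Lying above all controls, as protein white-like also did, was so for 15.1% of the 17492 genes tested in males. In females it ran from 2.25 to 7.55 CPM, and it did not pass the test between the sexes at 0.5 µg/L (-0.18, SE 0.51; edgeR adjusted p = 0.75). Neither of these genes was called in a comparison among females. None of the 6 genes with such names was called there, beside 0 to 0.00643% of all 15555 genes. Between the sexes at 0.5 µg/L, 2 of the 6 were called higher and 2 lower in females, beside 20.7% and 40.8% of all 18110 genes.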

How the data were processed

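The authors used Trimmomatic for trimming, STAR for alignment to their reference assembly (Eaff_2.0) and featureCounts for counts of genes. The deposited values are raw counts of 23728 genes in 18 libraries, each column matched to 1 library by its label, with 0 columns of other samples. They include 31 tRNA genes and 0 rows without a gene name.

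Counts were fitted with edgeR 4.0.16 in R 4.3.3 (default filter on low counts, TMM factors, robust quasi-likelihood test), with 15555 genes in females, 17492 in males and 18110 over all libraries for the sexes. A call required a p of 0.05 or less after Benjamini-Hochberg adjustment and a log2 fold change of 1 or more in size. CPM used the TMM factors of all libraries. The female-high list required a log2 fold change of at least 3 and 10 CPM. Steps were tested on simulated counts.

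The members and lists were chosen with earlier results of these data known. Genes named are the 4 members, the matches of the eye list and, per member, the 3 genes of highest Pearson correlation of log2 CPM (prior count 2). No replicate was a copy of another. Male controls and males at 0.5 µg/L with the same number deviated together (r = 0.597, 0.273 and 0.361), each above the criterion of 0.1 used. Numbers pair these groups by that criterion, although replicates 2 and 3 correlated as much across numbers (0.320 and 0.284). In no other comparison did all same-number values reach 0.1. Control females and control males had 0.170 and 0.274 for replicates 1 and 2, and -0.0102 for replicate 3. Alternatives were DESeq2 1.42.0, edgeR's likelihood ratio test, other scaling, no filter, other sets of libraries, a replicate block, a flow cell term and leaving libraries out.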

Additional observations from a re-analysis of the deposited data

How the results depend on the processing

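Chaoptin-like, otx5-A-like and LOC111699563 stayed called between the sexes at 0.5 µg/L under each alternative. Leaving out male replicates 2 and 3 together is not counted here, since it was chosen after seeing the data. The adjusted p of the edgeR and DESeq2 tests ran from 0.0065 to 0.050, 4.7e-06 to 0.0033 and 5.7e-06 to 0.0028. LOC111708628 was called under none of them (0.22 to 0.78). With single libraries left out, their log2 fold changes ran from 1.99 to 2.92, 1.44 to 2.09, -2.12 to -1.78 and, for LOC111708628, -0.43 to -0.19. Genes called between the sexes numbered 11138, and from 9776 to 11929 over the alternatives.

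Counts of genes called among females depended on the tool. At 0.5 µg/L against controls, 0 became 5 with DESeq2, 5 with the likelihood ratio test and 0 to 3 with single libraries left out. At 50 µg/L against controls, 1 became 143 with DESeq2, 133 with the likelihood ratio test, 3 with no filter, 4 in the fit of 18 libraries, and 0 by library size alone, with the flow cell as a covariate or with the replicate block. It ran from 0 to 72 with single libraries left out, 72 being without female control replicate 2. Between the doses, 0 became 11 with DESeq2 and 3 with the likelihood ratio test, and ran from 0 to 31, the latter without female 0.5 µg/L replicate 3. The cause was not tested.

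None of the 4 genes was called among females under any alternative, but differences close to 0 changed sign. At 50 µg/L against controls, chaoptin-like moved to -0.05 by library size alone, -0.03 in the fit of 18 libraries and -0.04 with the flow cell covariate, and otx5-A-like to 1.3e-03 with DESeq2. With single libraries left out the ranges were -0.06 to 0.06 for chaoptin-like, -0.10 to 0.13 for otx5-A-like and -0.05 to 0.27 for LOC111708628. At 0.5 µg/L they were -0.02 to 4.0e-03 for chaoptin-like and -0.13 to 0.80 for LOC111699563. Between the doses chaoptin-like gave -0.02 by library size alone and -3.8e-03 in the fit of 18 libraries, and ran from -0.05 to 0.08.

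In males at 50 µg/L against controls, leaving out control replicates 2 and 3 together was chosen after seeing the data. It left a single male control and moved chaoptin-like to 0.79, otx5-A-like to -0.42 and LOC111708628 to 2.50. A flow cell covariate moved LOC111708628 to 2.41. Within males flow cell and dose cannot be told apart, so this covariate rests on female 0.5 µg/L replicate 3 alone. With the replicate block, males at 0.5 µg/L against controls stood at -0.88, -0.41, 0.05 and 0.29 for the 4 genes, chaoptin-like shifted by 0.93 towards 0 at 50 µg/L against controls and to -1.12 at 50 against 0.5 µg/L, and 11210 genes were called between the sexes. The replicate block changed no call of the 4 genes. A stricter female-high list, at a log2 fold change of at least 5, held 4 genes, with medians of 0.441, 9.80 and 12.4% in control males.

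The limits lie in the design. Depth was lowest in males at 50 µg/L, where the flow cell cannot be told apart from the dose. Only 3 pools were sequenced per group, and the female-high genes differed between control pools of males.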
